A study of Mus musculus with 8 samples.

Results

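The genes described here make, conjugate and move bile acids in the liver, or sense them through the nuclear receptor FXR. They number 10: Cyp7a1, Cyp7b1, Cyp8b1, Cyp27a1, Baat, Abcb11, Abcb4, Slc10a1, Nr1h4 and Nr0b2. Each consensus ATAC-seq region on mm10 was assigned to the nearest protein-coding gene by distance to the gene span, up to 100 kb. This gave 56 regions for the 10 genes, of 49587 in all. No region was equally near to another gene, and the farthest lay 22406 bp from its gene. Beyond the limit, 5 further regions had Cyp7b1 as nearest gene, at 185022 to 381539 bp, and were left out.

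ATAC-seq inserts sequencing adapters into open DNA with a transposase. The libraries came from whole liver of 9-week-old male C57BL/6 mice, all fasted for 24 h, with 2 libraries for each of 4 genotypes. Wild type carried neither mutation, and Cpt2 knockout (Cpt2 L-/-) lacked Cpt2 in liver. Ppara knockout (Ppara -/-) lacked Ppara, and double knockout (Cpt2 L-/- ; Ppara -/-) combined liver loss of Cpt2 with whole-body loss of Ppara. Cpt2 is a carnitine palmitoyltransferase needed to burn long-chain fatty acids in mitochondria, and Ppara encodes a fatty acid receptor that drives the fasting response. The driver of the liver knockout, the targeted exons and whether the 2 libraries of a genotype came from separate mice are not given in the sources used here. Wild type and Cpt2 knockout are called Ppara-intact below, and Ppara knockout and double knockout Ppara-null.

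Bile acids are made from cholesterol in hepatocytes. The classical route starts with Cyp7a1 and the alternative route with Cyp27a1 and Cyp7b1, and Cyp8b1 directs the product towards cholic acid. Bile acids activate FXR, which induces SHP, the product of Nr0b2, and export pumps, and SHP in turn represses synthesis genes.

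The peak lists were of unequal length, and every count below has to be read against that. Ppara-intact lists held 28733 to 39296 peaks and Ppara-null lists 18132 to 22715. Peak names carried a number per list, 441, 443, 446 or 4717 where Ppara was intact and 6831 to 6834 where it was not, so whatever it marks cannot be told apart from Ppara status. All 10 hepatocyte marker genes had a called region within 1 kb of a gene end in each Ppara-intact library, and 8 to 10 had one in the Ppara-null libraries. None of 6 Kupffer cell and macrophage markers had one in any library. With and without Ppara, the number for 6 endothelial markers was 1 and 0 to 1, for 6 stellate markers 1 to 2 and 0, for 7 cholangiocyte markers 2 to 3 and 0 to 1, and for 4 lymphocyte markers 1 and 0 to 1. Over all 21900 protein-coding genes the share with one was 47.4% to 49.9% per library with Ppara and 35.6% to 40.9% without. Of the regions nearest these genes, libraries with Ppara called on average 73.5% and those without it 22.1% for the cholangiocyte markers (17 regions). The shares were 53.8% and 15% for the endothelial markers (40 regions), 36.1% and 8.3% for the stellate markers (9 regions), and 68.2% and 52% for the hepatocyte markers (88 regions). Over all consensus regions the shares were 69.4% and 38.9%. The cholangiocyte marker Slc10a2 was nearest to 4 of the 17 regions of its list, including the 3 called in all 8 libraries. Of the 17 cholangiocyte marker regions, 3 (17.6%, against 6.82% of all regions) were called in each library with Ppara and in none without it. All 3 lay nearest 1 gene, and 0 had this pattern in lists cut to the strongest 18132 peaks of each library. The pattern held for 4 of the 88 hepatocyte marker regions (4.55%), 1 of the 40 endothelial (2.5%) and 0 of the 9 stellate. The opposite pattern held for 1 hepatocyte marker region, and for 0.0686% of all regions. Of 6 markers of other tissues, 2 (Ins2 and Cdx2) had a called region within 1 kb of a gene end in all 8 libraries. The part of other cell types in the results was not tested, and in whole liver fewer cells of a type and less open chromatin per cell cannot be told apart.

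Promoter sequences from RefSeq (GRCm38.p6, the assembly of mm10) were matched for 7 of the 10 genes, in 8 windows from 250 bases before to 50 after an annotated start. Printed are 4 that carry the findings below. The Nr1h4 window (chr10:89506609-89506908, minus strand) surrounds an internal start with no peak in any Ppara-null library. The Abcb11 window (chr2:69342567-69342866, minus strand) had a peak in 5 libraries, the Cyp8b1 window (chr9:121916256-121916555, minus strand) in 7, and the Slc10a1 window (chr12:80968030-80968329, minus strand) in all 8. All run 5′ to 3′, and capitals mark the nuclear receptor hexamer AGGTCA or its reverse complement TGACCT.
Nr1h4: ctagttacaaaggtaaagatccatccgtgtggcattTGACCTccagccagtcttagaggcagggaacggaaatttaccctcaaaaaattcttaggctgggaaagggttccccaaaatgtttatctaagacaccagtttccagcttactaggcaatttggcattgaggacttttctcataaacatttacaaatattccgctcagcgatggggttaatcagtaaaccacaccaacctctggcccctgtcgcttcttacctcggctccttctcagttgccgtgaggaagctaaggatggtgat
Abcb11: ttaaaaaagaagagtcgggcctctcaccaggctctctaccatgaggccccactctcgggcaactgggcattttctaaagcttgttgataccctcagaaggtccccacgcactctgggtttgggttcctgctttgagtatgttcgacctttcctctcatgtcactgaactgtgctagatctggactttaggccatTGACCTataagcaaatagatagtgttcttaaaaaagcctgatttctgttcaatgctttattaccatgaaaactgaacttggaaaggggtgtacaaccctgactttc
Cyp8b1: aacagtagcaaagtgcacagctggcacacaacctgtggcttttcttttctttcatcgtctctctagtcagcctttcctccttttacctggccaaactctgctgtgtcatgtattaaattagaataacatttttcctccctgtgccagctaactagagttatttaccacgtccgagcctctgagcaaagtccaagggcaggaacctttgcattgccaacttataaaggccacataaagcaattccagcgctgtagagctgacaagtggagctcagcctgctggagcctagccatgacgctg
Slc10a1: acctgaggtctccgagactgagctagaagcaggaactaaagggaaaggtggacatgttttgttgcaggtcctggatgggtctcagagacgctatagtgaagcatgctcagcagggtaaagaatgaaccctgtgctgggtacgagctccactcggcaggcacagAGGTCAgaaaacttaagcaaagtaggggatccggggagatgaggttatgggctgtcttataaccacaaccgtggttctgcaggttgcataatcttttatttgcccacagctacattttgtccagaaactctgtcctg

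The hexamer, searched on both strands, lay in 3 of the 8 windows (those of Nr1h4, Abcb11 and Slc10a1) and in 16.3% of all 32851 RefSeq windows. It began 214 bases before the internal Nr1h4 start, 56 before the Abcb11 start and 87 before the Slc10a1 start. None of the 8 windows held the LRH-1 site TCAAGGTCA (0.423% of all windows), which contains the hexamer, or the forkhead motif TGTTTAC (3.65%). None held the exact inverted repeat (0.00913%) or direct repeat (0.0396%) of the hexamer spaced by 1 base, or the exact HNF1 palindrome (0.00913%). These are matches to letters and were not tested as binding sites.

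Of the 56 regions, 15 were called in all 8 libraries (26.8%, against 22.7% of all consensus regions) and 9 in 1 library alone (16.1%, against 23.0%). By position, 12 were at a gene end, up to 1 kb from it (21.4%, against 26% of all regions), 26 inside a gene (46.4%, against 41.8%) and 18 outside genes (32.1%, against 32.3%). Regions at gene ends were called in a median of 7 libraries, those inside genes in 4 and those outside in 5. Over all consensus regions these medians were 7, 3 and 3. The median width was 384 bp, against 381 bp over all regions. Where at least 2 libraries called a region, the summits of their strongest peaks spanned a median of 71 bp over 47 regions.

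**Figure D1:**
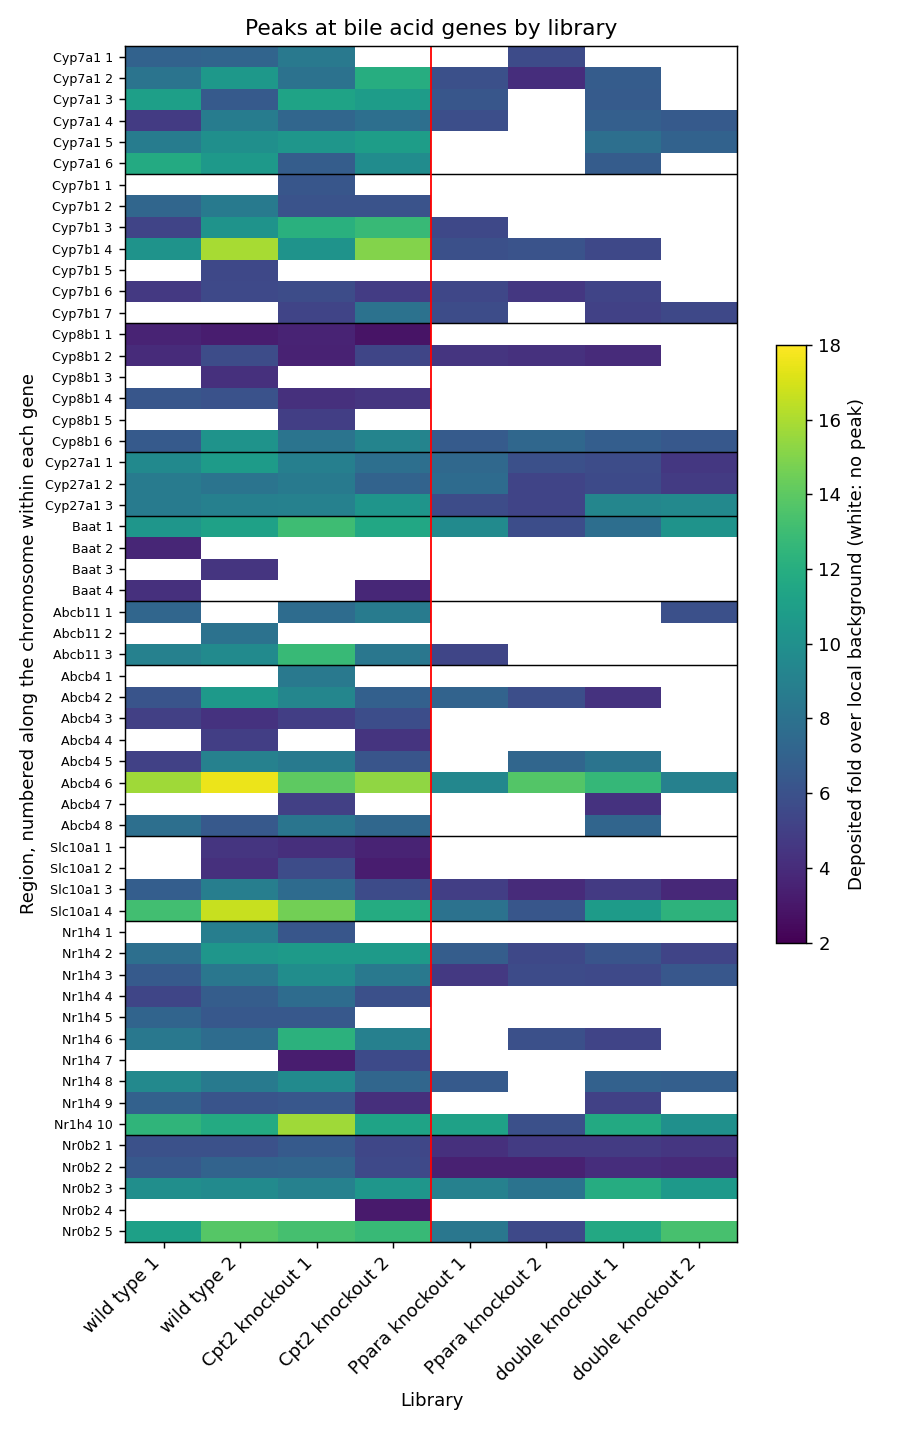
Deposited fold over local background of the strongest peak in each of the 56 regions (rows, numbered in coordinate order within each gene) and the 8 libraries (columns, Ppara-intact left of the red line); white means no peak. The 15 regions called in all 8 libraries sit mostly at Nr0b2, Cyp27a1, Nr1h4 and Slc10a1, and white cells are more frequent on the right.

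Fewer bile acid gene regions were called without Ppara. Wild type libraries called 41 and 46 of the 56 regions, Cpt2 knockout 48 and 44, Ppara knockout 26 and 23, and double knockout 31 and 20. The groups by Ppara status did not overlap, at 79.9% ± 5.33 of regions with Ppara and 44.6% ± 8.38 without it (SD, n = 4 each). Over all consensus regions the shares were 69.4% ± 8.87 and 38.9% ± 4.27 (SD, n = 4 each), so the drop was also present in the whole lists. In equal-number lists, which keep the strongest 18132 peaks of each library, the members' shares were 50% ± 3.86 and 41.5% ± 4.92, and the groups overlapped, with 44.6% in Cpt2 knockout 1 and 46.4% in Ppara knockout 1. All regions stood at 36.4% and 35.7% there.

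**Figure D2:**
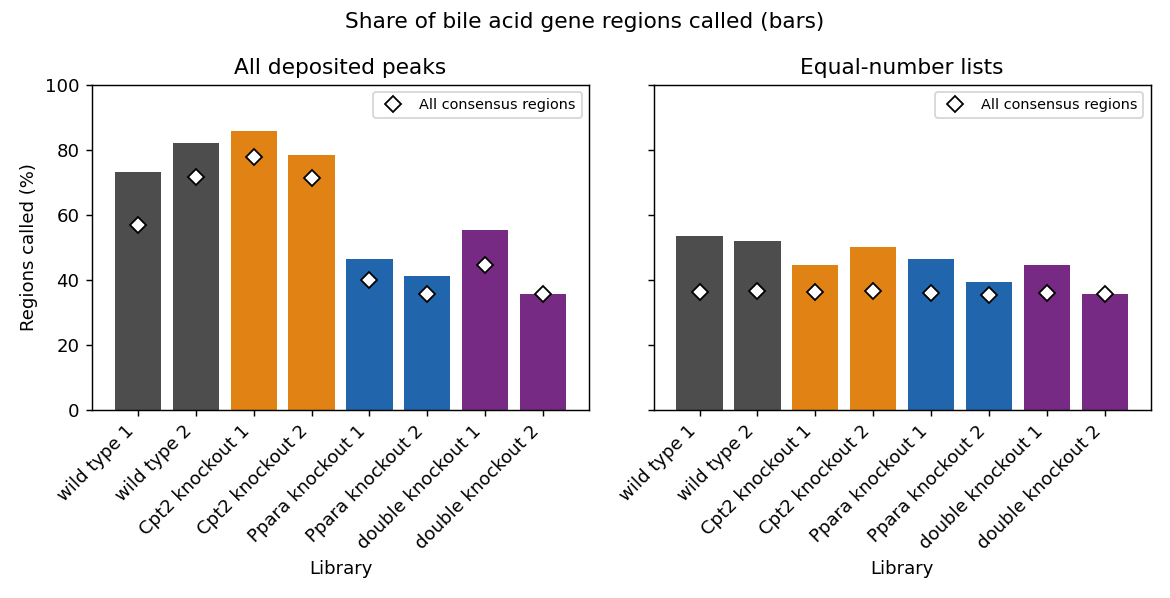
Share of the 56 bile acid gene regions called in each library (bars, coloured by genotype) and share of all consensus regions (diamonds), with all deposited peaks at left and with the strongest 18132 peaks of each library at right. At left the Ppara-intact bars reach 73.2% to 85.7% and the Ppara-null bars 35.7% to 55.4%, and at right the ranges are 44.6% to 53.6% and 35.7% to 46.4%.

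By Ppara status, 5 of the 56 regions (8.93%) had a peak in each of the 4 Ppara-intact libraries but in none of the Ppara-null ones, at Cyp8b1 (2 regions), Cyp7b1, Abcb4 and Nr1h4. The share over all consensus regions was 6.82%, and over the 46663 regions within 100 kb of a gene 6.87%, so the members' share was near the background. No member region had the opposite pattern, which 0.0686% of all regions had. In equal-number lists none of the 56 was separated, against 0.811% of all regions. Without double knockout 1 the count rose to 8, but with fewer libraries to separate it can only stay or rise, over all regions too. The share over all regions was not computed there. The 3 added regions lay at Cyp7a1 (6278486 to 6278865), at the outer end of Nr1h4 (89533479 to 89533861) and inside Abcb4 (8947499 to 8947802), and double knockout 1 was the only Ppara-null library that called them. As each comparison rests on calls in 2 or 4 libraries a side and the members were a chosen list, no test was made on them.

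Cyp7a1 (chromosome 4, 6265612 to 6275632) encodes the rate-limiting enzyme of the classical route. Of its 6 regions, Ppara-intact libraries called 5 to 6 and Ppara-null libraries 2 to 5, and none was called in all 8. The region at a gene end (6275604 to 6276047) had a deposited fold, the ratio of the peak summit to MACS2's local background, of 8.7 and 9.98 in wild type, 10.4 and 10.9 in Cpt2 knockout, and 7.83 and 7.06 in double knockout. Neither Ppara knockout library called it. It was the only one of the 56 regions (1.79%) that separated double knockout from Ppara knockout. Over all regions, 2.33% were called only in double knockout and 1.45% only in Ppara knockout. Its call pattern in equal-number lists was 4 of 4 Ppara-intact and 2 of 4 Ppara-null libraries. It was also the strongest of the gene's regions, at a mean percentile of 62.1. The percentile is the rank of a region's −log10 p in a library's own list, averaged over the libraries that called it, and strongest below means highest by this measure. The region 2854 bp beyond that end (6278486 to 6278865) had folds of 11.8, 10.6, 6.74 and 9.8 in the Ppara-intact libraries and 6.67 in double knockout 1. On the other side of the gene, 4 regions lay 2440 to 22406 bp away, and each was called by at least 3 Ppara-intact libraries and by 1 to 3 Ppara-null ones.

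Cyp8b1 (chromosome 9, 121914356 to 121916305) encodes the sterol 12-alpha-hydroxylase of cholic acid synthesis. It had 6 regions, and 2 of them separated the libraries by Ppara status. The region 930 bp from a gene end (121913042 to 121913426) had low folds of 3.58 and 3.26 in wild type and 3.59 and 2.83 in Cpt2 knockout. The region 7178 bp away (121923483 to 121923806) had folds of 6.31 and 6 in wild type and 4.22 and 4.44 in Cpt2 knockout. In equal-number lists 0 and 2 of the 4 Ppara-intact libraries kept these calls. The region over the annotated start (121916106 to 121916577) was called in all libraries but double knockout 2, with folds of 3.97, 5.7, 3.54 and 5.35 in Ppara-intact and 4.47, 4.25 and 3.99 in Ppara-null libraries. These ranges overlapped, and the peak summits lay from 69 bases before the start to 66 after it. The Cyp8b1 sequence printed above ends 50 bases after the start and holds all of these summits but that of Ppara knockout 2. The strongest region, 10301 bp from the gene (121926606 to 121927032, mean percentile 70.1), was called in all 8 libraries, with folds of 6.55 to 10.2 with Ppara and 6.43 to 7.32 without.

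Cyp27a1 (chromosome 1, 74713148 to 74737897) encodes the mitochondrial sterol 27-hydroxylase. All 3 of its regions were called in all 8 libraries. At the gene end (74712745 to 74714015) the folds were 9.57 and 10.8 in wild type, 8.93 and 7.87 in Cpt2 knockout, 7.38 and 5.91 in Ppara knockout, and 5.74 and 4.59 in double knockout. The 4 Ppara-intact values lay above the 4 Ppara-null ones (9.29 ± 1.22 and 5.9 ± 1.15, SD, n = 4 each). This order held in 60.0% of all 11258 regions called in all 8 libraries. The region inside the gene with the highest rank (74721628 to 74722091, mean percentile 79.7) had another order. Its folds were 8.66 and 8.98 in wild type, 9 and 10.4 in Cpt2 knockout, 5.73 and 5.31 in Ppara knockout, and 9.36 and 9.54 in double knockout, so only the Ppara knockout libraries stood low. Both double knockout folds exceeded both Ppara knockout folds in 28.6% of all regions called in all 8 libraries. At the remaining region (74719295 to 74719734) the folds of 7.08 to 8.65 in Ppara-intact libraries overlapped the 4.8 to 7.57 of Ppara-null libraries.

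Cyp7b1 (chromosome 3, 18071944 to 18243890) encodes the oxysterol 7-alpha-hydroxylase of the alternative route. It had 7 regions, of which Ppara-intact libraries called 4 to 6 and Ppara-null libraries 1 to 4. An intragenic region (18162792 to 18163192) had folds of 7.26 and 8.59 in wild type and 6.08 in each Cpt2 knockout library, and no peak in any Ppara-null library. In equal-number lists 1 of the 4 calls was left. At the gene end (18242966 to 18244017) the 4 Ppara-intact folds were 4.67 to 5.71 and the 3 Ppara-null folds 4.6 to 5.38, with no call in double knockout 2. The strongest region, inside the gene at 18191156 to 18191662 (mean percentile 51.3), had folds of 10.2 and 15.9 in wild type, 10.2 and 15 in Cpt2 knockout, 5.89 and 6.08 in Ppara knockout, and 5.49 in double knockout 1. A region 7282 bp from the gene (18251172 to 18251471) was called in both Cpt2 knockout libraries (folds 5.3 and 8.04) and in neither wild type library. It was also called in Ppara knockout 1 (5.69) and in both double knockout libraries (5.1 and 5.49).

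**Figure D3:**
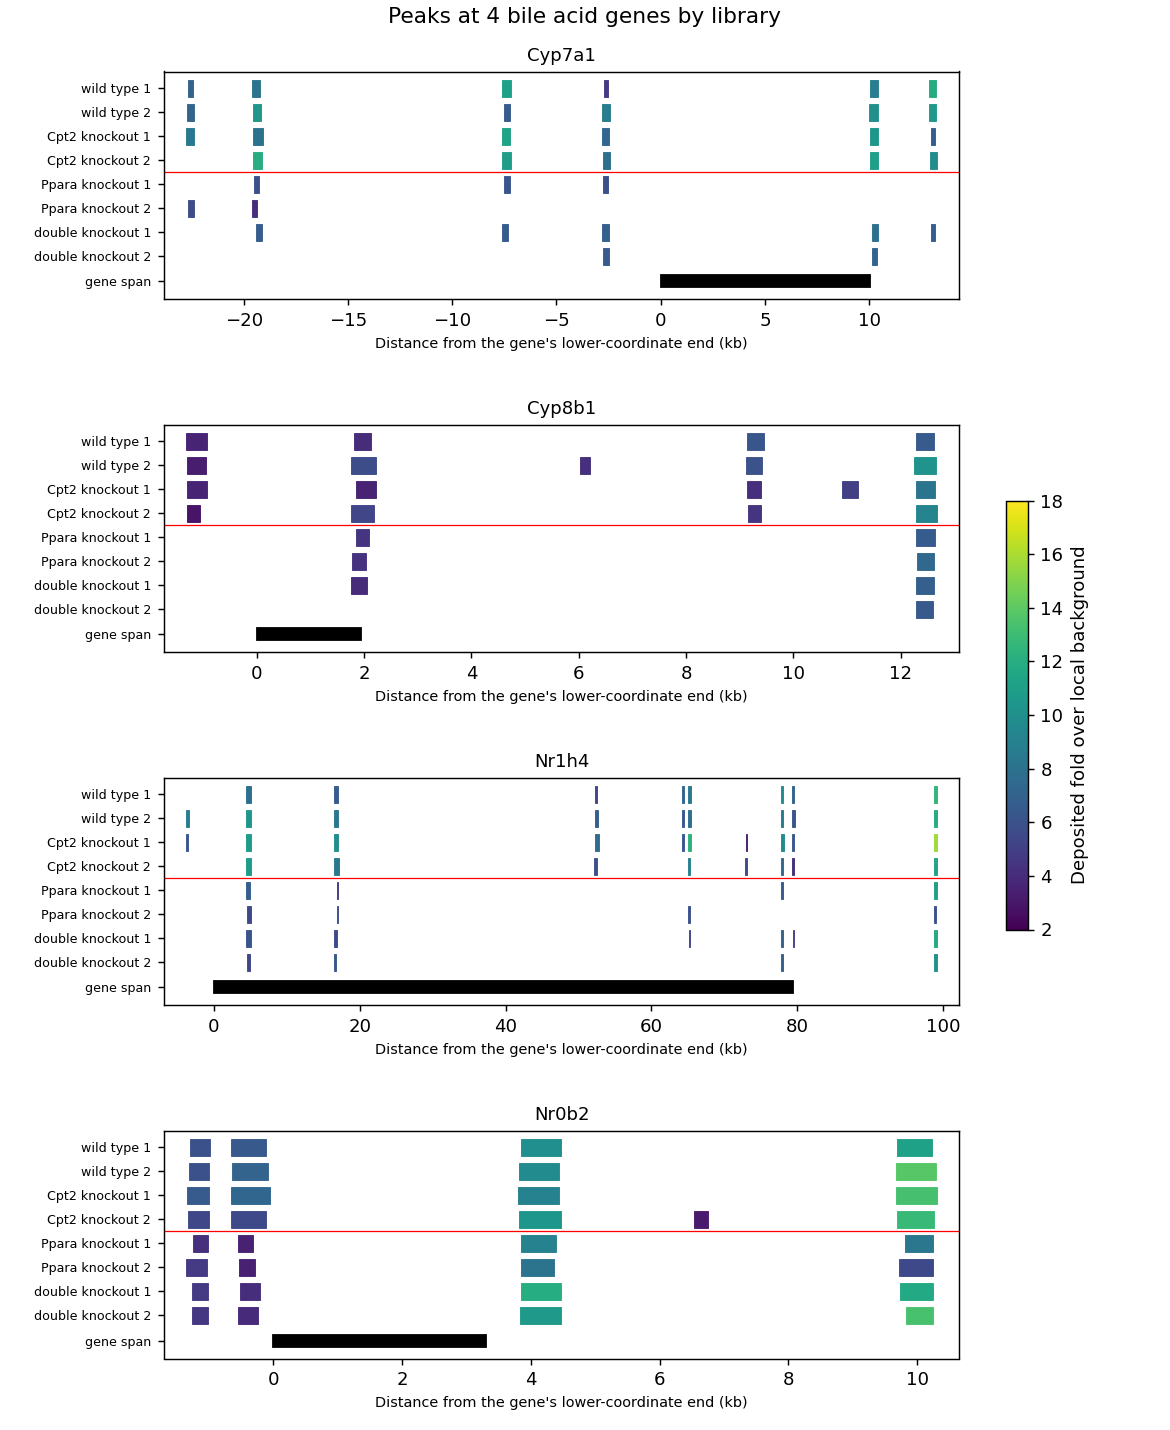
Peaks of the 8 libraries (bars, to scale, coloured by deposited fold) around Cyp7a1, Cyp8b1, Nr1h4 and Nr0b2, against distance from the lower-coordinate end of each gene in kb; the black bar is the gene span and the red line parts Ppara-intact from Ppara-null libraries. The peak at the right end of Cyp7a1 is missing only in Ppara knockout, the peak inside Nr1h4 near 52 kb is present only above the red line, and 4 Nr0b2 peaks are present in all 8 libraries.

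Baat (chromosome 4, 49489416 to 49507915) encodes the enzyme that joins bile acids to taurine or glycine. Its 4 regions included 1 called in all 8 libraries, 3548 bp from the gene (49485409 to 49485868, mean percentile 76). Folds there were 10.4 and 11.2 in wild type, 13 and 11.6 in Cpt2 knockout, 9.64 and 5.8 in Ppara knockout, and 7.76 and 10.2 in double knockout. Each Cpt2 knockout value exceeded each wild type value, an order held by 12.9% of all regions called in all 8 libraries. All Ppara-null values lay below the Ppara-intact ones, as in 60.0% of those regions. The other 3 regions were weak, with folds of 3.69 to 4.46 in 1 or 2 Ppara-intact libraries and no call in Ppara-null libraries.

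Abcb11 (chromosome 2, 69238282 to 69342616) encodes the bile salt export pump of the canalicular membrane, a textbook FXR target. The region at its annotated start (69342524 to 69343231) had folds of 9.06 and 9.67 in wild type, 12.7 and 8.37 in Cpt2 knockout, and 5.32 in Ppara knockout 1. Ppara knockout 2 and both double knockout libraries had no peak there. In equal-number lists the calls were the same, 4 Ppara-intact libraries and 1 Ppara-null library. Relative to the start, the 5 summits lay at -436 to -372 bases, upstream of the Abcb11 sequence printed above, which the peaks overlapped in part. The other 2 regions lay inside the gene and were called in 4 libraries and 1 library.

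Abcb4 (chromosome 5, 8893614 to 8959226) encodes the canalicular transporter of phosphatidylcholine. It had 8 regions, of which Ppara-intact libraries called 5 to 7 and Ppara-null libraries 1 to 5. The strongest, inside the gene at 8928380 to 8928885 (mean percentile 87.7), was called in all 8, with folds of 15.7 and 17.5 in wild type, 14 and 15.3 in Cpt2 knockout, 9.42 and 13.7 in Ppara knockout, and 12.6 and 9.04 in double knockout. The Ppara-intact values all exceeded the Ppara-null ones, as in 60.0% of all regions called in all 8 libraries. Both wild type values exceeded both Cpt2 knockout values, as in 7.22% of them. At the gene end (8893529 to 8894184) folds of 6.13 to 10.6 in Ppara-intact libraries overlapped the 4.34 to 7.09 of 3 Ppara-null libraries, and double knockout 2 had no call. Another intragenic region (8898278 to 8898589) had peaks in the 4 Ppara-intact libraries alone, at folds of 5.01, 4.33, 4.95 and 5.77, and 1 of these calls was left in equal-number lists.

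Slc10a1 (chromosome 12, 80953185 to 80968705) encodes NTCP, the sodium-dependent carrier that takes bile acids up from portal blood. Of its 4 regions, 2 were called in all 8 libraries. The region over an annotated start inside the gene (80967774 to 80968407), 298 bp from the gene's end, had folds of 6.78 and 8.84 in wild type, 7.57 and 5.68 in Cpt2 knockout, 4.97 and 3.98 in Ppara knockout, and 4.72 and 3.86 in double knockout. The Ppara-intact folds, 7.22 ± 1.33, did not overlap the Ppara-null folds, 4.38 ± 0.544 (SD, n = 4 each). Such an order held in 60.0% of all regions called in all 8 libraries. Summits lay from 64 bases before to 113 after this start. The Slc10a1 sequence printed above holds them all but that of double knockout 2, the last of them, and no library had a peak in the window of the other annotated start at 80968705. The strongest region, 7098 bp from the gene (80975803 to 80976654, mean percentile 85.4), had folds of 11.9 to 16.7 in Ppara-intact libraries, 8.02 and 6.29 in Ppara knockout, and 10.8 and 12.3 in double knockout. Double knockout folds above both Ppara knockout folds were found in 28.6% of all regions called in all 8 libraries. The remaining 2 regions, inside the gene, were called in wild type 2 and both Cpt2 knockout libraries, at folds of 3.26 to 5.73.

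Nr1h4 (chromosome 10, 89454234 to 89533645) encodes FXR, the bile acid receptor. It had 10 regions, the most of any member, of which Ppara-intact libraries called 8 to 10 and Ppara-null libraries 4 to 6. The region over the internal start (89506424 to 89507083), whose sequence is printed above, had folds of 5.36 and 6.74 in wild type and 7.63 and 5.9 in Cpt2 knockout, and no call in the 4 Ppara-null libraries. Summits lay from 12 bases before to 41 after that start. None of the 4 calls was left in equal-number lists, and wild type 1, at the lowest fold, was not called at a −log10 q of at least 20. At the outer gene end (89533479 to 89533861) folds were 6.96 and 6.13 in wild type, 6.36 and 4.17 in Cpt2 knockout, and 5.07 in double knockout 1. The region 1292 bp inside that end (89531951 to 89532353) had the highest mean percentile of the gene, 74, and was called in all libraries but Ppara knockout 2, with folds of 7.25 to 9.63 with Ppara and 6.55 to 6.99 without. Its mean leaves out Ppara knockout 2, which ranked the region at 89552948 (mean 71, all 8 libraries) at 32.7. A weak region at 89527128 to 89527404 was called in both Cpt2 knockout libraries alone, with folds of 3.31 and 5.6.

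At Nr1h4, 3 regions were called in all 8 libraries. At 89458590 to 89459385 the folds were 7.85 to 10.7 with Ppara and 5.29 to 6.73 without, and at 89470644 to 89471325 they were 6.55 to 9.86 and 4.67 to 6.32. In both, the groups by Ppara status did not overlap, with Ppara-intact folds higher, as in 60.0% of all regions called in all 8 libraries. Each Cpt2 knockout value exceeded each wild type value in both, as in 12.9% of all such regions. The region 19303 bp from the gene (89552948 to 89553380) had folds of 12.5 and 11.8 in wild type, 15.7 and 11.3 in Cpt2 knockout, 11.2 and 5.89 in Ppara knockout, and 11.7 and 10.0 in double knockout, and there the groups overlapped.

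Nr0b2 (chromosome 4, 133553376 to 133556686) encodes SHP, an orphan receptor that FXR induces and that represses Cyp7a1. Its 5 regions included 4 called in all 8 libraries. The region 45 bp from the gene's start (133552722 to 133553331) had folds of 6.38 and 7.09 in wild type, 7.2 and 5.52 in Cpt2 knockout, 3.44 and 3.46 in Ppara knockout, and 4.07 and 3.91 in double knockout. These gave 6.55 ± 0.775 with and 3.72 ± 0.318 without Ppara (SD, n = 4 each), a ratio of 0.568. It was the lowest such ratio among the members' 15 regions called in all 8 libraries. The median over all 11258 such regions was 0.68. The next region outward, 987 bp from the gene (133552026 to 133552389), had folds of 5.95, 5.97, 6.52 and 5.41 in Ppara-intact and 4.22, 4.75, 4.75 and 4.55 in Ppara-null libraries. In both regions the Ppara-intact folds all exceeded the Ppara-null ones, as in 60.0% of all regions called in all 8 libraries.

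Beyond the other end of Nr0b2, 498 bp away (133557184 to 133557851), lay the region with the highest rank of all 56, at a mean percentile of 98.5. Its folds were 9.9 and 9.64 in wild type, 9.05 and 10.4 in Cpt2 knockout, 9.02 and 8.1 in Ppara knockout, and 11.9 and 10.6 in double knockout. Here the Ppara-intact and Ppara-null values overlapped, at a ratio of 1.02, and the double knockout libraries were the highest. The −log10 p was 187 to 204 in Ppara-intact, 94.4 and 63.2 in Ppara knockout, and 199 and 147 in double knockout libraries. At 6365 bp from the gene (133563051 to 133563683) folds were 11.1 to 13.8 in Ppara-intact libraries, 8.35 and 5.51 in Ppara knockout, and 11.7 and 13.3 in double knockout. In both regions the double knockout folds exceeded the Ppara knockout folds, as in 28.6% of all regions called in all 8 libraries.

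**Figure D4:**
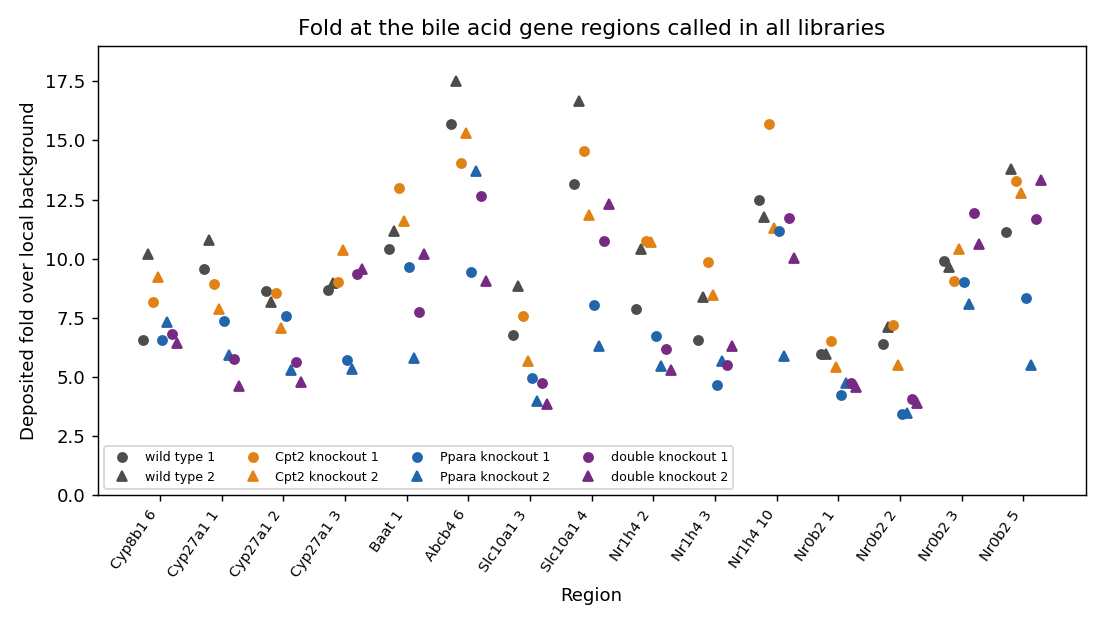
Deposited fold over local background at the 15 bile acid gene regions called in all 8 libraries; each point is 1 library, coloured by genotype, with circles for replicate 1 and triangles for replicate 2, and regions are numbered in coordinate order within each gene. Ppara-null points sit below all Ppara-intact points in 8 regions, and double knockout points sit above both Ppara knockout points in 5, among them the third region of Cyp27a1 and the last of Slc10a1.

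Fold values come from lists called separately, so their order across libraries is a description. In 8 of the 15 regions called in all 8 libraries (53.3%) the 4 Ppara-intact folds all exceeded the 4 Ppara-null ones. Among all 11258 such regions the share was 60.0%, and no member region had the opposite order. The median ratio of the Ppara-null to the Ppara-intact mean fold was 0.718 for the 15 regions and 0.68 for all. Both double knockout folds exceeded both Ppara knockout folds in 5 of the 15 (33.3%, against 28.6% of all), at Cyp27a1, Slc10a1 and 3 regions of Nr0b2. Both Cpt2 knockout folds exceeded both wild type folds in 4 (26.7%, against 12.9%), at Cyp27a1, Baat and 2 regions of Nr1h4. The opposite order of these genotypes held in 2 (13.3%, against 7.22%), at Cyp27a1 and Abcb4.

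Pairs of genotypes were compared by regions called in both libraries of one and neither of the other, and pairs that share a genotype are not independent. For Ppara knockout against wild type, 10 member regions (17.9%) were called only in wild type, against 13.6% of all regions, and 0 only in the knockout, against 0.460%. For double knockout against wild type, 9 (16.1%, against 12.9%) were called only in wild type and 1 (1.79%, against 1.20%) only in double knockout, the Cyp7b1 region at 18251172. For double knockout against Cpt2 knockout, 10 (17.9%, against 20.4%) were called only in Cpt2 knockout and 0 (against 0.597%) only in double knockout. Each share lay near that of the whole series. Without wild type 1 the total against wild type rose to 18 for each knockout. Without double knockout 1 both of its totals rose to 21, and without Cpt2 knockout 2 that of double against Cpt2 knockout rose to 16. With a library left out, pair counts over all regions can also only stay or rise, here and below, and their shares were not computed.

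Loss of Cpt2 separated few member regions. For Cpt2 knockout against wild type, 2 regions (3.57%, against 3.63% of all) were called only in Cpt2 knockout, those at Cyp7b1 (18251172) and Nr1h4 (89527128) given above, and 0 only in wild type, against 0.512%. Without 1 library the total was 5 to 7, and without wild type 1 the direction turned, with 3 regions called for the knockout alone and 4 for wild type alone. In equal-number lists it also turned, with 0 and 1, against 0.918% and 0.815% of all regions. For double knockout against Ppara knockout, 1 region (1.79%, against 2.33%), that at the end of Cyp7a1, was called only in double knockout, and 0 (against 1.45%) only in Ppara knockout. Without 1 library this total was 3 to 7, and the direction turned without double knockout 1 (2 and 5 regions) and without Ppara knockout 2 (1 and 2). It also turned in equal-number lists (1 and 3, against 2.03% and 1.84% of all regions).

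Other bile acid genes, a list of 38 enzymes, transporters and regulators, had 239 regions. Of these, 22 (9.21%, against 6.82% of all regions) had a peak in every Ppara-intact library but in none without Ppara, at 16 genes, and 0 had the opposite pattern. In equal-number lists none of the 239 was separated, against 0.811% of all regions. Called in all 8 libraries were 66 regions (27.6%, against 22.7% of all). The separated regions included 3 inside Scp2, which encodes the peroxisomal thiolase of bile acid side-chain shortening, with folds of 3.57 to 5.96. A further 3 lay inside Nr5a2, which encodes LRH-1, an activator of Cyp7a1, with folds of 4.48 to 11.7. Nr1i2, the gene of the xenobiotic receptor PXR, and Akr1c6 had 2 each. Abcc4, Cyp39a1, Hsd17b4, Ch25h, Cyp2c70, Rxra, Hnf4a, Abcd3, Klb, Akr1d1, Slco1b2 and Sult2a8 had 1 each. A called region within 1 kb of a gene end was present in all 8 libraries for 17 of the 38 genes (44.7%, against 30.8% of all 21900 protein-coding genes), among them Fgfr4, Abcc2, Abcg5 and Hnf4a. Per library the number of genes with one was 26 to 28 with Ppara (68.4% to 73.7%) and 19 to 22 without (50% to 57.9%). Over all protein-coding genes the shares were 47.4% to 49.9% and 35.6% to 40.9%, so these groups did not overlap either.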

How the data were processed

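ATAC-seq was measured in 8 libraries of mouse liver, 2 for each of 4 genotypes. Per the submitters' processing notes, reads were aligned with BWA and peaks called with MACS2 2.1.0 on mm10. The duplicate handling and transposase offset are not given in the sources used here. The authors deposited 1 peak list per library, with a score (10 times the −log10 p, rounded down, for at least 99.99% of peaks per list), a fold ratio over local background, and −log10 p and q values for each peak. All of these are the authors' own values. A further deposited table gave positions of consensus regions (unit: other than a signal) and no count per region. Read depth is unknown.

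From these, a library called a region if any of its peaks shared 1 bp or more with it, and the strongest peak by −log10 p gave its values. A percentile is the rank of a peak's −log10 p within its own list. Gene spans (21900 protein-coding genes, with no strand) were those of RefSeq on GRCm38.p6. The regions named were those within 1 kb of a member's end, those separated by Ppara status or by Cpt2 status at 1 Ppara status, and each member's highest ranked region. Others that are named (regions called in all 8 libraries, regions that a left-out library adds, the remaining Cyp7a1 and Slc10a1 regions and those with 1 library far from the rest) were chosen after their values were seen. The members and lists were chosen with earlier results of these data known. No per-region test was run, as the files hold calls and no counts. The functions were tested on simulated data. Python 3.11.15, NumPy 2.4.6, pandas 2.3.3 and matplotlib 3.10.9 were used.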

Additional observations from a re-analysis of the deposited data

Results flagged for a closer look

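Fold values in the 4 libraries of one Ppara status were screened for a library far from the other 3, in 53 groups of 4, of which 2 stood out; about 1 in 20 would by chance. At the Nr1h4 region at 89458590, wild type 1 had a fold of 7.85, and the nearest other Ppara-intact library 10.4. At the Cyp7a1 region at 6257998, wild type 2 had a fold of 6.54, and the nearest other Ppara-intact library 10.8.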

How the results depend on the processing

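The lists differ in length, and in equal-number lists every library holds 18132 peaks. There the member regions separated by Ppara status fell from 5 to 0, and the difference in the share of member regions called between Ppara-intact and Ppara-null libraries from 35.3 to 8.48 percentage points. Regions separated in Ppara knockout against wild type, double knockout against wild type and double knockout against Cpt2 knockout numbered 4 each in place of 10. Of the 56, these were 1 only in the first and 3 only in the second genotype, 0 and 4, and 0 and 4. The shares of all regions separated there, only in the first and only in the second genotype, were 2.38% and 3.44%, 3.08% and 3.35%, and 2.61% and 2.99%. Cpt2 knockout against wild type gave 1 region, only in wild type, and double knockout against Ppara knockout gave 4, of which 1 was only in double knockout, so both directions turned. These lists hold fewer peaks by construction.

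At a −log10 q of at least 20 the difference in shares was 42.9 points (60.7% and 17.9% of member regions), against 46.9% and 17.3% over all regions. With at least 50% of a region covered, double knockout against Ppara knockout gave 4 regions, 2 on each side. Over all regions, 2.58% were then called only in double knockout and 1.68% only in Ppara knockout. Leaving out each library in turn, by which fewer libraries have to be separated, gave 5 to 8 regions by Ppara status, 13 to 18 for Ppara knockout against wild type, 11 to 21 for double knockout against wild type and against Cpt2 knockout, 5 to 7 for Cpt2 knockout against wild type and 3 to 7 for double knockout against Ppara knockout. Shares over all regions were not computed for these counts. The count of regions whose Ppara-intact folds all exceeded the Ppara-null folds was 8 to 11, against 60.5% to 72.9% of all regions called in every library kept. It was of 15 regions, but of 17 without Ppara knockout 2 (9) and of 20 without double knockout 2 (11). With −log10 p in place of fold and all 8 libraries it was 12 of 15 (76.4% of all regions). A distance limit of 10 kb left 52 regions and changed no count by over 1.5 times. Other values of these results were within 1.5 times or 1 SD of those reported, 42 in all. The alternatives for fold order and for single regions were chosen after seeing the data. No paired analysis was possible because the results come from no test. Without read counts, a region with no call may hold signal below the peak threshold.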

Other observations

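Slc10a2 (the ileal bile acid carrier), Fabp6, Fgf15 and Gpbar1 are bile acid genes known mainly from gut or bile duct. Of these 4, a called region within 1 kb of an end was present for 2 genes in wild type 2 and Cpt2 knockout 1 and for none in the other 6 libraries. Over all protein-coding genes the share per library was 35.6% to 49.9%. The 4 genes had 9 regions (Slc10a2 4, Fabp6 4, Fgf15 1 and Gpbar1 0). Libraries with Ppara called on average 61.1% of them and those without it 50%, against 69.4% and 38.9% of all regions. Called in all 8 libraries were 3 (33.3%, against 22.7% of all regions), each nearest Slc10a2, which is also among the cholangiocyte markers above.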
